A study of Homo sapiens with 6 samples.

Results

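ZC3H4, PRR3, KCNE3 and TRIM69, whose transcripts were among the steepest losses in both Ewing sarcoma cell lines treated with THZ1, are described here together with WDR82, the binding partner of ZC3H4. They are 5 of the 27420 genes in the deposited expression table, all 5 protein-coding. The first 4 were chosen from 5986 genes that exceeded 10 FPKM in the DMSO library of each line and were listed at 0 in no library, by the smaller of their falls in the 2 lines at 50 nM, and hold 4 of the first 5 places in that ranking; FADD, at the third place, is not a member. Their values at 50 nM are therefore a description. WDR82 was chosen as the partner of ZC3H4 and not by this ranking, although earlier results of these data were known at the time. Both A673 and SKNMC are established lines of this tumour, and THZ1 blocks the transcriptional kinase CDK7 by binding it covalently. Cells of each line were exposed for 6 h to 50 nM THZ1, to 200 nM THZ1 or to the vehicle DMSO, and 1 RNA-seq library was made for each condition. No allele or other agent is named in the sample labels. No line and condition has a replicate, no test was run and no p-value is given, and each difference is one between libraries. FPKM (fragments per kilobase of transcript scaled to the mapped fragments of the library) is a level per length and a relative share of a library, and in bulk RNA fewer cells of a kind and less RNA per cell cannot be told apart. Changes are log2 fold changes of FPKM with 1 added, which understates those of low values, and genes above 1 FPKM in the DMSO library of a line are called active. The sum of listed FPKM in the THZ1 libraries was 97.8% to 100.5% of that in DMSO, and read depth cannot be recovered from these values. Ewing sarcoma markers (CD99, NKX2-2, NR0B1, STEAP1, CCND1 and LIPI) were all present, between 14.8 and 710.6 FPKM in A673 with DMSO and between 25.2 and 370.2 FPKM in SKNMC. Of 6 listed markers of other cell types, the highest value in A673 was 0.0229 FPKM (DMSO), 0.0444 (50 nM) and 0.0889 (200 nM). In SKNMC the leukocyte gene PTPRC was at 10.2, 7.90 and 13.1 FPKM (DMSO, 50 nM and 200 nM), and its part in the results was not tested.

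CDK7 phosphorylates the C-terminal tail of RNA polymerase II as transcription starts, and a second role, in activating other CDKs, links it to elongation. ZC3H4, a CCCH zinc finger protein, works with WDR82 to end transcription of short and non-productive RNAs, such as antisense and enhancer RNAs, before they extend far. WDR82 recognises the phosphorylated polymerase tail, and it also belongs to the PNUTS-PP1 phosphatase complex and to the SETD1 histone methyltransferase complexes. The other genes have unlike functions. PRR3 encodes a proline-rich protein with CCCH zinc fingers, KCNE3 a single-pass subunit that modulates voltage-gated potassium channels, and TRIM69 a RING-type ubiquitin ligase.

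ZC3H4 transcripts were almost lost from the THZ1 libraries of both lines. The gene (ENSG00000130749) spans chr19:47567444-47617009 on the minus strand of hg19. In A673, ZC3H4 was at 12.6 FPKM with DMSO, 0.455 at 50 nM and 0.366 at 200 nM. For SKNMC, ZC3H4 was at 11.6 FPKM with DMSO, 0.641 at 50 nM and 0.715 at 200 nM. All 4 THZ1 values were below the limit for an active gene. The share of the DMSO value left was 3.61% (50 nM) and 2.90% (200 nM) in A673, and 5.50% and 6.15% in SKNMC. For A673 the log2 fold changes were -3.23 (50 nM) and -3.32 (200 nM), and for SKNMC -2.95 and -2.88. Because the remaining values are below 1 FPKM, these folds depend on the number added: with 0.1 in place of 1 they were -4.52 and -4.77 in A673 and -3.99 and -3.85 in SKNMC. Before treatment the lines differed little, with a log2 difference of 0.11 (A673 minus SKNMC), and ZC3H4 was a gene of middle level, at the 46.6th percentile of active genes in A673 and the 45.4th in SKNMC.

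WDR82 (ENSG00000164091, chr3:52288437-52322036, minus strand) also had lower values in every THZ1 library, by less than ZC3H4. In A673, WDR82 was at 29.8 FPKM with DMSO, 12.3 at 50 nM and 7.76 at 200 nM. For SKNMC, WDR82 was at 54.7 FPKM with DMSO, 28.2 at 50 nM and 13.5 at 200 nM. Unlike ZC3H4, the transcript stayed well above the limit for an active gene. It was lower at the higher dose in both lines. For A673 the log2 fold changes were -1.21 (50 nM) and -1.81 (200 nM), and for SKNMC -0.93 and -1.94. WDR82 thus passed 2-fold at both doses in A673 and at 200 nM in SKNMC, and missed it at 50 nM in SKNMC. Its call at 50 nM depends on how the libraries are scaled. Divided by the 75th percentile of active genes, the fold change in A673 was -0.97, and with the ribosomal protein genes as the reference, that in SKNMC was -1.28. In the ranking that placed ZC3H4 first, WDR82 was at rank 661 of 5986. Among active genes counted from the lowest fold change, it was at rank 1175 of 11077 in A673 at 50 nM and at rank 2141 of 11896 in SKNMC. At 200 nM it was at rank 766 in A673 and at rank 488 in SKNMC.

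The promoter sequences of this pair are shown because both hold the palindrome TGACGTCA, the full cyclic AMP response element bound by CREB and ATF factors. They are the 250 bases upstream of the RefSeq start on GRCh38.p14, 5′ to 3′ on the strand of the gene, with the palindrome in capitals: chr19:47113777-47114026 (minus strand) for ZC3H4 and chr3:52278650-52278899 (minus strand) for WDR82.
ZC3H4: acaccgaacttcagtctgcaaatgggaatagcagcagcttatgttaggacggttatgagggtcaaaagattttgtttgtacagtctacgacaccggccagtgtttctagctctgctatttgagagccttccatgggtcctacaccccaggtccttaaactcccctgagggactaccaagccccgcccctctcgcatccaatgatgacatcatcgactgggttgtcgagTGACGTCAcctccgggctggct
WDR82: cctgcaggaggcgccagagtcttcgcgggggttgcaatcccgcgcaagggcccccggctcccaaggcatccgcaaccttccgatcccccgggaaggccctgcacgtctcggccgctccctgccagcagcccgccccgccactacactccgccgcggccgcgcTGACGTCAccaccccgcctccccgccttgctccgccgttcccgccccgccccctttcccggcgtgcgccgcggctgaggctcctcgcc
In ZC3H4 the palindrome lies 22 to 15 bases before the start, and in WDR82 88 to 81 bases before it. It was found in 578 of 35116 promoter windows of the same length (1.65%), and it was searched for only after these sequences had been seen. The windows otherwise differ in composition. That of ZC3H4 has 52.4% GC and 10 CpG dinucleotides, that of WDR82 76% GC and 32 CpG, and the medians over all windows are 58% and 11. Matching letters describe the windows and are not evidence of a bound factor. The RefSeq starts were not compared with the ends of the gene spans given above on hg19.

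PRR3 (ENSG00000204576, chr6:30524663-30531500, plus strand) fell to a small remainder in both lines. In A673, PRR3 was at 27.1 FPKM with DMSO, 1.61 at 50 nM and 2.41 at 200 nM. For SKNMC, PRR3 was at 28.5 FPKM with DMSO, 2.86 at 50 nM and 3.54 at 200 nM. The lines began at nearly the same level, and in both the 200 nM library held slightly more of the transcript than the 50 nM library. For A673 the log2 fold changes were -3.43 (50 nM) and -3.05 (200 nM), and for SKNMC -2.93 and -2.70. In A673 at 50 nM, with 1 added, this was the lowest fold change of all 11077 active genes, at a dose whose values chose the gene. That rank depends on the number added: with 0.1, PRR3 was at -3.99 and ZC3H4 lower, at -4.52. Among active genes PRR3 was at rank 25 in A673 at 200 nM, and at ranks 9 (50 nM) and 58 (200 nM) in SKNMC. RefSeq gives PRR3 a pair of starts. The upstream sequence of the second holds CCGGAAG, the core letters of ETS family sites, the family of FLI1, more than once. It is shown for that reason on GRCh38.p14, chr6:30557185-30557279 (plus strand), from 110 to 16 bases before the start, with each match on either strand in capitals.
PRR3: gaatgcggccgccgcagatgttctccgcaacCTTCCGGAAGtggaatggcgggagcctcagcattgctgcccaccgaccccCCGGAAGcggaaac
The first capital stretch is a match on both strands that overlap (79 to 73 bases and 76 to 70 bases before the start), and the second lies at 29 to 23 bases. This stretch lies downstream of the other PRR3 start, whose upstream window ends at chr6:30556708. GNL1, which overlaps the 5′ end of PRR3 on the other strand, had log2 fold changes between -0.58 and -0.26. Which start was used in these cells was not tested, nor was the place of the printed stretch relative to the start of GNL1. Of all windows, 8.52% hold this word on either strand. The words TATAAA and GGAAGGAA (a pair of GGAA repeats) occur in 10.7% and 3.06% of all windows. TATAAA was present, on the reverse strand, only in the second PRR3 window among those of the 5 genes, and GGAAGGAA in none of them.

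KCNE3 (ENSG00000175538, chr11:74165886-74178774, minus strand) was the member whose level differed most between the lines before treatment. In A673, KCNE3 was at 20.8 FPKM with DMSO, 2.21 at 50 nM and 2.25 at 200 nM. For SKNMC, KCNE3 was at 100.5 FPKM with DMSO, 10.0 at 50 nM and 6.68 at 200 nM. The SKNMC DMSO level was 4.83 times that of A673, a log2 difference of -2.22 (A673 minus SKNMC). Among genes active in both lines, 8.96% were at least 2-fold lower in A673 than in SKNMC and 6.93% at least 2-fold higher. In spite of the unlike starting levels, the share left at 50 nM was near one value, 10.6% in A673 and 9.96% in SKNMC. For A673 the log2 fold changes were -2.76 (50 nM) and -2.75 (200 nM), and for SKNMC -3.21 and -3.72. Among active genes counted from the lowest fold change, KCNE3 was at ranks 11 (50 nM) and 68 (200 nM) in A673, and at rank 3 in SKNMC at 50 nM. In SKNMC at 200 nM, KCNE3 had the second lowest fold change of 11896 active genes. The lowest there was that of EEF1A1, which is listed at 0 in both SKNMC THZ1 libraries and cannot be read as a measured loss.

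TRIM69 (ENSG00000185880, chr15:45021186-45060027, plus strand) came last of the chosen 4 in the shared ranking at 50 nM. In A673, TRIM69 was at 20.5 FPKM with DMSO, 1.96 at 50 nM and 3.46 at 200 nM. For SKNMC, TRIM69 was at 14.5 FPKM with DMSO, 1.47 at 50 nM and 2.36 at 200 nM. The share left was larger at the higher dose, with 16.9% and 9.55% in A673 and 16.3% and 10.1% in SKNMC (200 and 50 nM). For A673 the log2 fold changes were -2.86 (50 nM) and -2.27 (200 nM), and for SKNMC -2.65 and -2.21.

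**Figure D1:**
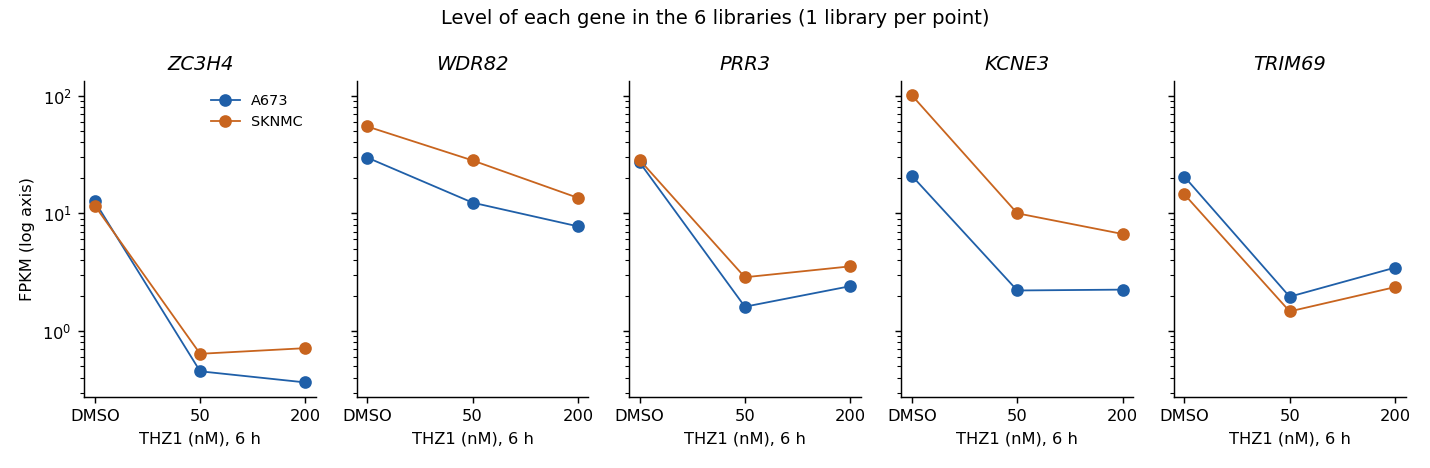
FPKM of each member in the 6 libraries, on a log axis, with 1 point per library and lines joining the doses of a cell line (A673 blue, SKNMC orange); there are no replicates and no error bars. ZC3H4 lies below 1 FPKM in all 4 THZ1 libraries, whereas WDR82 is lower at 200 nM than at 50 nM in both lines.

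The order of the 5 levels per length changed with THZ1. In A673 with DMSO it was WDR82, PRR3, KCNE3, TRIM69 and ZC3H4, and in SKNMC it was KCNE3, WDR82, PRR3, TRIM69 and ZC3H4. With THZ1, WDR82 was the highest of the 5 in all 4 libraries and ZC3H4 the lowest. KCNE3 and TRIM69 lay next to each other in A673 with DMSO, at 20.8 and 20.5 FPKM, and without a replicate spread no neighbours in these orders can be called different.

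Of the members, 5 of 5 decreased at least 2-fold in A673 at 50 nM, where 15.9% of all active genes did, and 4 of 5 in SKNMC, where 15.8% did; since these values chose 4 of the members, nothing is read from the counts. At 200 nM all 5 passed 2-fold in each line, beside 25.3% of active genes in A673 and 27.3% in SKNMC. The comparison at 200 nM uses the same DMSO library as that at 50 nM and is no independent repeat. Of the 5, all but WDR82 decreased at least 4-fold in every comparison, a fold reached by 1.37% of active genes in A673 and 1.24% in SKNMC at 50 nM, and by 4.7% and 3.53% at 200 nM. The 5 genes had median log2 fold changes of -2.86 (50 nM) and -2.75 (200 nM) for A673 and -2.93 and -2.70 for SKNMC, against -0.27, -0.40, -0.32 and -0.55 over all active genes. No member increased at least 2-fold anywhere, as did at most 0.471% of active genes in a comparison (0.126% in A673 at 200 nM). On both sides of the limit of the choice the values were close. In the shared ranking, where each gene is represented by the smaller of its falls, ZC3H4 was at -2.95, PRR3 at -2.93, KCNE3 at -2.76 and TRIM69 at -2.65. FADD, the adaptor of death receptors, lay between PRR3 and KCNE3 at -2.82 and is not a member. The next below TRIM69 were C1orf131 at -2.63, YAE1D1 at -2.61 and EXOSC3, a core subunit of the RNA exosome, at -2.57.

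**Figure D2:**
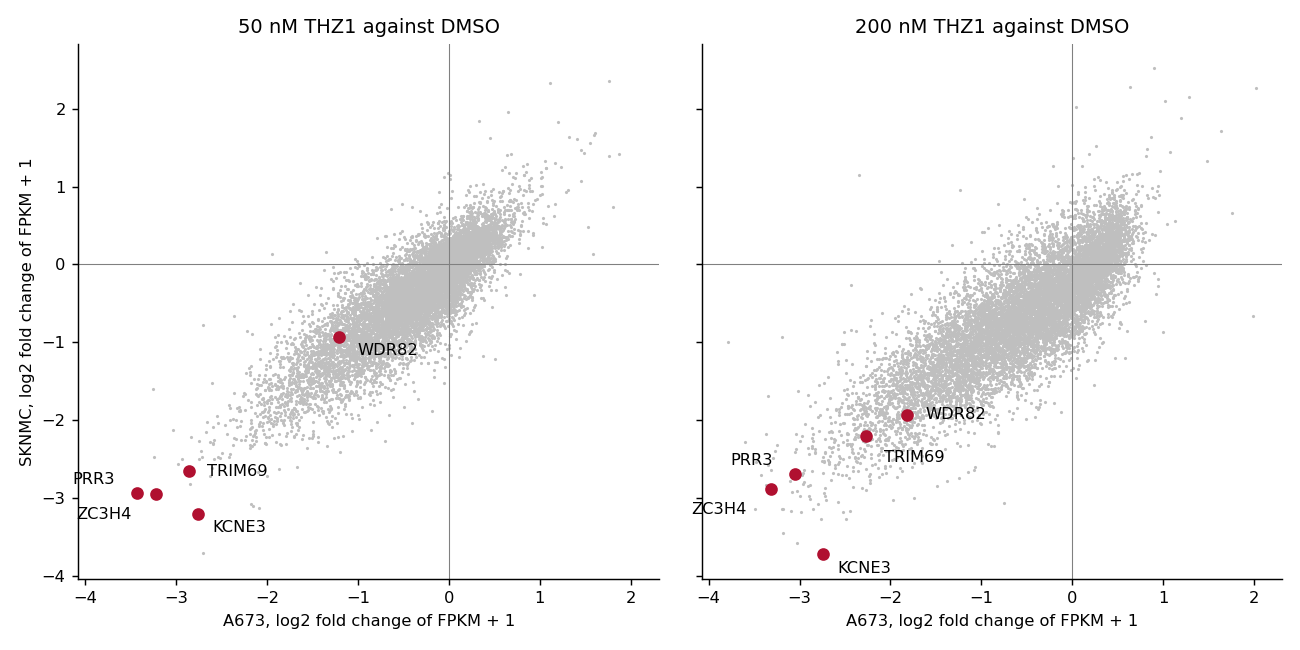
Log2 fold change of FPKM with 1 added in A673 (horizontal axis) and SKNMC (vertical axis) for genes active in both lines, at 50 nM (left) and 200 nM (right), with the 5 members in red. EEF1A1, listed at 0 in both SKNMC THZ1 libraries, is left out. ZC3H4, PRR3, KCNE3 and TRIM69 lie at the lower left edge at 50 nM by choice, and WDR82 lies inside the cloud.

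Between the doses, which can be compared without the DMSO library, the members went different ways. TRIM69 was higher at 200 nM than at 50 nM in both lines, by a log2 difference of 0.59 in A673 and 0.45 in SKNMC. PRR3 was higher as well, by 0.38 and 0.23. These directions held under all 3 rescalings of the libraries, with the smallest value, 0.05, for PRR3 in SKNMC when divided by the ribosomal protein genes. WDR82 had the opposite order, at -0.61 in A673 and -1.0 in SKNMC, and was at least 1.5-fold lower in both lines, as were 18% and 22.1% of active genes. The A673 call was lost with the 75th percentile as the reference (-0.51). TRIM69 was just over 1.5-fold higher in A673, as were 2.33% of active genes, a call lost when the libraries were set to a common sum (0.57), and in SKNMC, where 3.77% of active genes were, no member was; with 0.1 added or with the 75th percentile as the reference TRIM69 passed there too, at 0.65 and 0.69. KCNE3 was nearly equal in A673 at 0.017 and lower in SKNMC at -0.52, and ZC3H4 was near 0 in both lines, at -0.091 and 0.064. The sign of ZC3H4 in SKNMC and that of KCNE3 in A673 turned under a rescaling, to -0.02 and -0.07 with the ribosomal protein genes. Among all active genes, 48.3% were higher at 200 nM than at 50 nM and 51.7% lower in A673, and 37.9% higher and 62% lower in SKNMC. Of genes active in both lines, 30% were higher in both, like PRR3 and TRIM69, and 45.7% lower in both, like WDR82. Among active genes already down at least 4-fold at 50 nM, 44.7% were higher at 200 nM in A673, below the 48.3% of all active genes. In SKNMC 55.8% of such genes were higher, above the 37.9% of all active genes. A gene chosen for a very low value at 50 nM can be higher at 200 nM because of that choice.

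ZC3H4 and WDR82 act with SRRT (ARS2) and the nuclear cap-binding proteins NCBP1 and NCBP2, and with casein kinase 2. Among these 8 genes, 2 decreased at least 2-fold in A673 at 50 nM (ZC3H4 and WDR82) and 1 in SKNMC (ZC3H4), and 3 in each line at 200 nM. Without the members, 0 of 6 decreased at 50 nM and 1 of 6 at 200 nM in each line. Of all active genes, 15.9% decreased in A673 and 15.8% in SKNMC at 50 nM, and 25.3% and 27.3% at 200 nM. At 200 nM both members and CSNK2A2 passed 2-fold in each line. CSNK2A2, a catalytic subunit of casein kinase 2, was at -1.26 in A673 and -1.43 in SKNMC, and the other catalytic subunit, CSNK2A1, was at -0.94 and -0.98. SRRT, which links capped RNA to its processing, had values above 0 in all 4 comparisons, at 0.71 and 0.53 in A673 and 0.62 and 0.83 in SKNMC (50 and 200 nM). CSNK2B, NCBP1 and NCBP2 lay between -0.44 and 0.17. The 6 genes other than the members had medians of -0.30 (A673) and -0.29 (SKNMC) at 50 nM, where those of all active genes were -0.27 and -0.32, and of -0.065 and -0.19 at 200 nM, above the -0.40 and -0.55 of all active genes. None of the 6 passed 4-fold in any comparison.

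In the PNUTS-PP1 complex, which removes phosphates from the polymerase tail and its elongation factors, PPP1R10 (PNUTS) decreased at least 2-fold in all 4 comparisons. In A673, PPP1R10 was at 17.2 FPKM with DMSO, 3.10 at 50 nM and 6.45 at 200 nM. For SKNMC, PPP1R10 was at 21.1 FPKM with DMSO, 1.57 at 50 nM and 6.54 at 200 nM. Its fold change of -2.15 in A673 and -3.10 in SKNMC at 50 nM was thus less deep at 200 nM, at -1.29 and -1.55 (-0.96 in A673 with the 75th percentile scaling, under 2-fold), the reverse of the dose order of WDR82. TOX4, a DNA-binding subunit, passed 2-fold in SKNMC at both doses, at -1.05 and -1.31, and was at -0.91 and -0.63 in A673, but the SKNMC values were -0.78 and -0.79 with the 75th percentile scaling. The PP1 catalytic subunits PPP1CA, PPP1CB and PPP1CC lay between -0.92 and 0.39. In all, 2 of the 6 genes decreased in A673 at each dose, and 2 and 3 in SKNMC at 50 and 200 nM. Without WDR82, 1 of 5 decreased in A673 and 2 of 5 in SKNMC at each dose. Of all active genes, 15.9% decreased in A673 and 15.8% in SKNMC at 50 nM, and 25.3% and 27.3% at 200 nM.

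For the SETD1 complexes, which methylate lysine 4 of histone H3, more genes passed 2-fold at the higher dose. At 50 nM only WDR82 of 9 genes passed 2-fold in A673, and none in SKNMC. At 200 nM, where the share of all active genes had also grown, from 15.9% and 15.8% to 25.3% and 27.3%, 4 of 9 passed in each line: WDR82, the catalytic subunits SETD1A (-1.17 in A673 and -1.39 in SKNMC) and SETD1B (-1.14 and -1.11), and RBBP5 (-1.75 and -1.60), a core subunit of this enzyme family. The other core subunits were closer to 0 at 200 nM, with WDR5 at -0.86 and -0.95, ASH2L at -0.57 and -0.63, and DPY30 at 0.20 and -0.44. CXXC1, which binds unmethylated CpG, was at -0.49 and 0.21, and HCFC1 at -0.51 and -0.24. The count in A673 at 50 nM was 0 with scaling by the 75th percentile and 3 with scaling by the ribosomal protein genes. These scalings shifted the median of all active genes by up to 0.48. Single genes could move further, as WDR82 did in SKNMC at 200 nM, from -1.94 to -1.40 and -2.48. The same therefore holds for other values near the 2-fold limit.

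**Figure D3:**
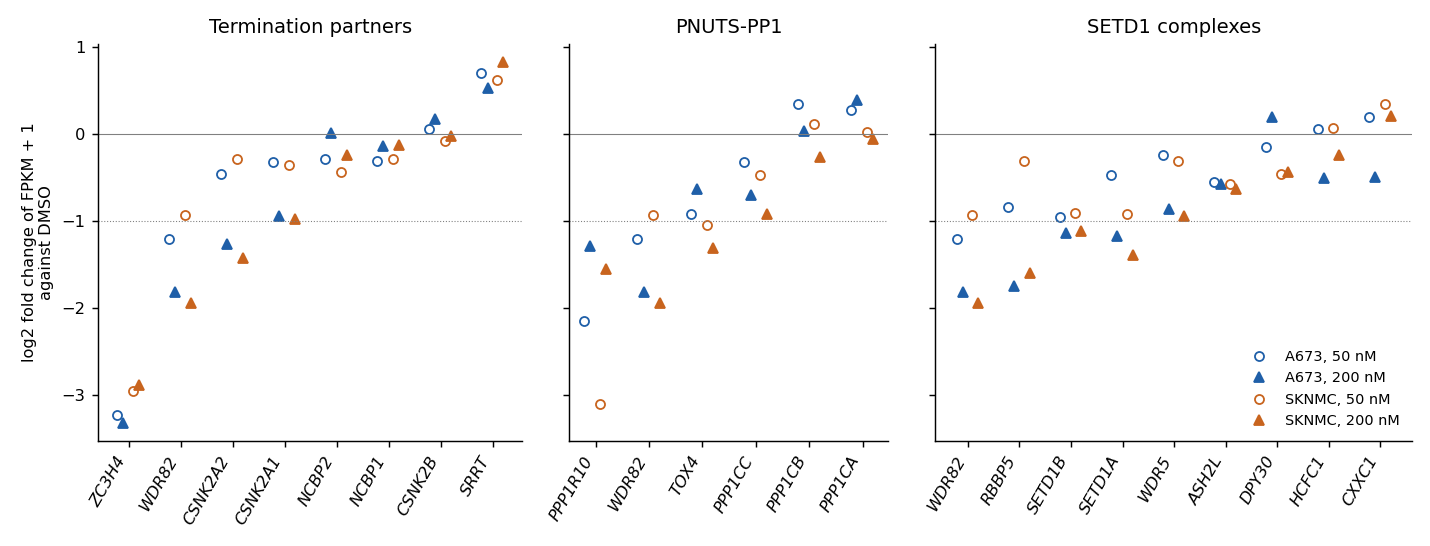
Log2 fold change of FPKM with 1 added against DMSO for the partners of ZC3H4 and WDR82, with 1 point per line and dose and dotted lines at a 2-fold change. ZC3H4 and PPP1R10 are the only genes plotted that go under -2 in any comparison, and SRRT lies above 0 in all 4.

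Other machineries that end or degrade transcripts had their own low members, and their counts stand beside 15.9% (A673) and 15.8% (SKNMC) of all active genes at 50 nM and 25.3% and 27.3% at 200 nM. Of 14 Integrator subunits, which cleave RNA and end transcription early, 5 decreased at least 2-fold in A673 and 4 in SKNMC at 50 nM, and 7 and 6 at 200 nM, or 35.7%, 28.6%, 50.0% and 42.9%. With the 75th percentile scaling, 2 in A673 and 3 in SKNMC decreased at 200 nM, beside 17.3% and 13.4% of all active genes. The lowest was INTS5, at -2.37 and -2.98 in A673 and -2.23 and -3.18 in SKNMC, followed by VWA9 at -1.41 and -1.22 in A673 and -1.55 and -1.73 in SKNMC. INTS1 and INTS4 had the highest means, with values between -0.12 and 0.26. Of 22 genes of the nuclear exosome and its adaptors, which degrade the RNAs that ZC3H4 restricts, 7 decreased in A673 and 5 in SKNMC at 50 nM, and 9 and 12 at 200 nM, or 31.8%, 22.7%, 40.9% and 54.5%. EXOSC3 led this list, in A673 from 41.8 FPKM with DMSO to 4.45 (50 nM) and 6.19 (200 nM), and from 25.6 to 3.48 and 2.22 in SKNMC. Its fold change was -2.98 and -2.58 in A673 and -2.57 and -3.05 in SKNMC, as deep as those of the chosen genes. EXOSC4, another core subunit, decreased at least 2-fold in all 4 comparisons, at -1.65 and -1.92 in A673 and -1.77 and -2.36 in SKNMC.

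Of 26 cleavage, polyadenylation and termination factors, 7 decreased in A673 and 6 in SKNMC at 50 nM, and 11 in each line at 200 nM, or 26.9%, 23.1% and 42.3%. The lowest were a pair of cleavage stimulation factor genes. CSTF1 was at -1.48 and -3.02 in A673 and -1.79 and -3.58 in SKNMC, and CSTF2T at -2.11 and -2.51 in A673 and -1.80 and -2.03 in SKNMC. RBBP6, which activates cleavage, increased at least 2-fold in A673 at 50 nM (1.29), as did 0.343% of active genes, and was at 0.94 in SKNMC. At 200 nM RBBP6 was at -0.31 and -0.51. CPSF6, a subunit of cleavage factor I, was at 0.72 and 0.84 at 50 nM and near 0 at 200 nM, at -0.05 and 0.10. The median of this list at 50 nM, -0.12 in A673 and -0.09 in SKNMC, lay above those of all active genes, although its share of decreased genes was higher, so the list was spread widely in both directions.

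The gene families of the members did not share their loss evenly. Of the CCCH zinc finger genes without ZC3H4 and PRR3, 8 of 43 active genes decreased at least 2-fold in A673 at 50 nM and 8 of 44 in SKNMC, with medians of -0.29 and -0.22, near those of all active genes. At 200 nM 16 of 43 and 15 of 44 decreased, beside 25.3% and 27.3% of all active genes, and the medians, -0.80 and -0.73, lay below those of all active genes (-0.40 and -0.55). ZC3HAV1, an antiviral RNA-binding protein, increased at least 2-fold in SKNMC at 50 nM (1.00), as did 0.471% of active genes. ZFP36, which destabilises AU-rich mRNAs, increased at least 2-fold in SKNMC at 200 nM (1.07), as did 0.462% of active genes. KCNE and associated potassium channel genes were mostly silent, with 3 of 15 active in A673 and 6 in SKNMC. KCNE4, another subunit of this kind, was at 71.3 FPKM with DMSO, 50.2 (50 nM) and 20.5 (200 nM) for A673, and at 22.4, 5.59 and 2.98 FPKM in SKNMC. KCNE4 thus had its higher level in A673, the reverse of KCNE3, and its A673 fold change was -0.50 at the lower dose and -1.75 at the higher. In the TRIM family, of which 73 genes are listed, 12 of 32 active genes other than TRIM69 decreased at least 2-fold in A673 and 12 of 38 in SKNMC at 50 nM, and 20 and 21 at 200 nM. All active genes had 15.9% and 15.8% at 50 nM and 25.3% and 27.3% at 200 nM. The medians of these TRIM genes were -0.88 and -0.77 at 50 nM, against -0.27 and -0.32 over all active genes. TRIM27, a RING-type ubiquitin ligase, was at -1.76 and -2.72 in A673 and -1.51 and -2.87 in SKNMC. TRIM28, a corepressor recruited by zinc finger proteins, lay between 0.15 and 0.34, and between -0.34 and 0.06 when scaled by the ribosomal protein genes, and TRIM25 lay between -0.18 and 0.05.

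The genes beside the members did not change alike, and some of them fell as well. SAE1, a subunit of the SUMO-activating enzyme, starts inside the 5′ end of ZC3H4 on the other strand and overlaps it by 479 bases. In A673, SAE1 was at 192 FPKM with DMSO, 219 at 50 nM and 237 at 200 nM. For SKNMC, SAE1 was at 120 FPKM with DMSO, 112 at 50 nM and 106 at 200 nM. The sources used here do not say if counting was strand-specific, so reads in the shared bases cannot be assigned with certainty. The log2 fold changes of SAE1 lay between -0.17 and 0.30, and those of ZC3H4 between -3.32 and -2.88. GNL1 overlaps PRR3 in the same head-to-head way by 289 bases and lay between -0.58 and -0.26, and GLYCTK overlaps WDR82 by 932 bases and lay between -0.45 and -0.27. On the other side of PRR3, ABCF1 was at -0.82 and -1.07 in A673 and -0.66 and -0.99 in SKNMC, and PPP1R10, the PNUTS gene, follows at a gap of 36676 bases. Of these 4 neighbouring genes on chromosome 6, PRR3 and PPP1R10 had the steep falls, and GNL1 and ABCF1 lie on either side of PRR3. Near WDR82, ALAS1, the rate-limiting enzyme of heme synthesis, passed 2-fold in SKNMC at 200 nM alone (-1.83). B2M, the light chain of MHC class I, lies 10110 bases from TRIM69 and was higher in every THZ1 library (at 200 nM in SKNMC not when scaled by the ribosomal protein genes, -0.02), from 2371 FPKM to 3115 and 3576 in A673 and from 1712 to 2303 and 2539 in SKNMC. Beside KCNE3, LIPT2 and POLD3, at gaps of 23982 and 26121 bases, decreased at least 2-fold in all 4 comparisons, as PPP1R10 did beside PRR3. POLD3 was at -1.22 and -1.55 in A673 and -1.41 and -2.30 in SKNMC. Of all active genes, 15.9% (A673) and 15.8% (SKNMC) decreased at 50 nM, and 25.3% and 27.3% at 200 nM. The lincRNA AP001372.2, also beside KCNE3, was at -1.56 and -1.58 in SKNMC. In A673 it was not active, at 0.979 FPKM with DMSO. With the 75th percentile scaling LIPT2 was at -0.88 in A673 at 200 nM and POLD3 at -0.99 in A673 at 50 nM.

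**Figure D4:**
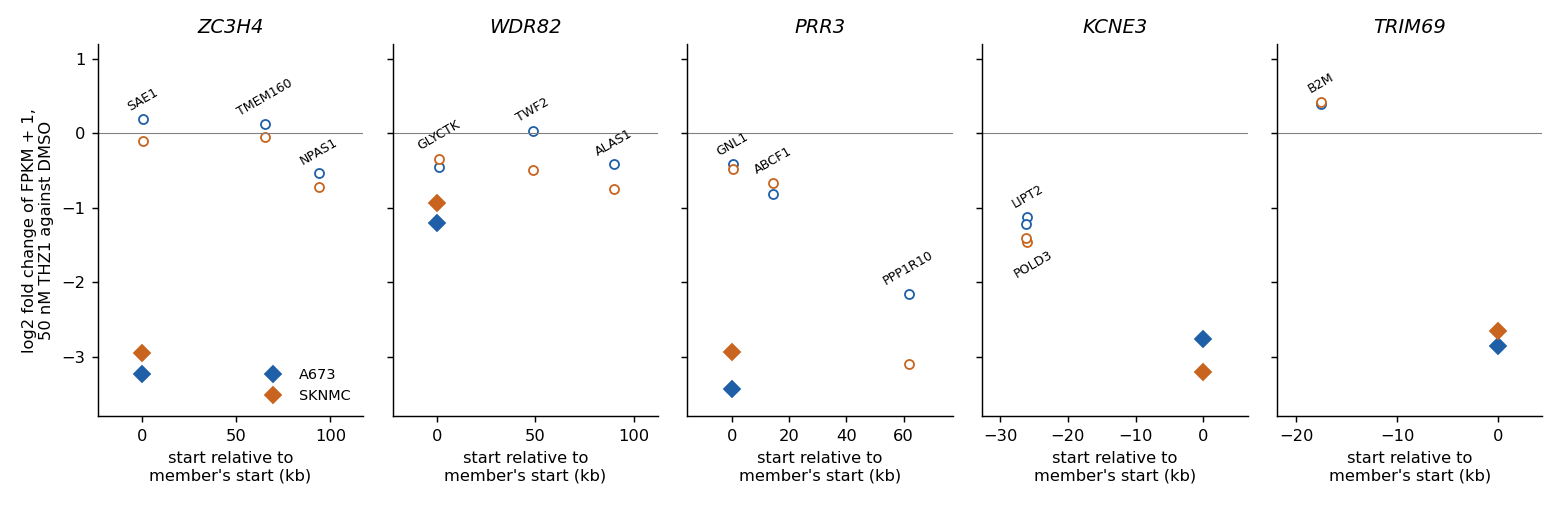
Log2 fold change at 50 nM against DMSO (vertical axis) for each member (diamonds) and its protein-coding neighbours within 50 kb that were above 1 FPKM in both DMSO libraries (circles), plotted by the distance of their start from the start of the member in kb (A673 blue, SKNMC orange). The neighbours of ZC3H4 and TRIM69 lie between -0.72 and 0.43, while PPP1R10 beside PRR3 lies at -2.15 in A673 and -3.10 in SKNMC.

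The transcript models of the members have little in common. ZC3H4 has 15 exons, WDR82 9, TRIM69 7, PRR3 4 and KCNE3 3, against a median of 9 over 5937 genes of the ranking with a GENCODE 44 model on GRCh37. Their spans run from 6.838 kb for PRR3 to 49.566 kb for ZC3H4, around a median of 28.8 kb. Mature transcripts run from 1735 bases for TRIM69 to 6143 bases for ZC3H4, with a median of 2986 bases.

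By Euclidean distance over the 4 log2 fold changes, among the same 5986 genes, the profile nearest to ZC3H4 was that of PRR3 (0.39). Then came ZBED5 (0.53), DDIT3 (0.81), a stress-induced transcription factor also called CHOP, FADD (0.85) and TNFRSF1A (0.88), the main receptor of tumour necrosis factor. The 3 nearest to PRR3 were ZC3H4 (0.39), ZBED5 (0.56) and DDIT3 (0.72). The profiles nearest to WDR82 were much closer to it, as its values lie among those of many genes: RRP1 (0.10), C7orf26 (0.12) and LMO4 (0.20). KCNE3 had the most distant nearest profiles, YAE1D1 (0.94), GDF6 (0.95) and EXOSC3 (0.97). For TRIM69 they were C7orf49 (0.45), GTPBP2 (0.45) and PRR5L (0.53). These distances rest on 4 values per gene, and each DMSO library enters a pair of them. The values at 50 nM among them also chose ZC3H4 and PRR3, so the nearness of this pair is partly built in. It depends on the number added as well. With 0.1 in place of 1, ZC3H4 was at -4.52 and -4.77 in A673 (50 and 200 nM), and PRR3 at -3.99 and -3.44.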

How the data were processed

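RNA-seq values of 6 libraries, 1 for each line and condition as given by the sample labels, were analysed. The authors sequenced 100-bp paired-end reads, aligned them to hg19 (GRCh37) with STAR using Ensembl 75 and, according to the methods, estimated expression with StringTie, whereas the submitters' processing notes name Cufflinks; versions are not given in the sources used here. The deposited FPKM values were used as given, and the 4 deposited columns of log2 fold changes were not used. The table is titled as average expression, while the labels give 1 sample per condition; each column was treated as 1 library. FPKM holds no counts, so the depth is unknown and no counting interval can be given.

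Log2 fold changes were computed with 1 added, active genes had FPKM above 1 with DMSO, and a call was a change of at least 2-fold. No test was run, since each line and condition has 1 library; a fit that takes the lines as replicates of a dose was not made. Listed starts count from 0, since 54.6% of them match GENCODE 44 starts after adding 1 and 1.59% as they stand; 1 was added here. Promoters were taken from RefSeq (GRCh38.p14), where all 5 members matched. Steps were tested on simulated data (Python 3.11.15, pandas 2.3.3, numpy 2.4.6, matplotlib 3.10.9).

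The members and the gene lists were chosen with earlier results of these data known. The genes named are the members, the nearest profiles (5 for ZC3H4 and 3 for each other member), the 3 genes next in the ranking, neighbours within 50 kb, all partners in the ZC3H4-WDR82, PNUTS-PP1 and SETD1 lists, and up to 4 genes with the lowest and highest mean change in each other list. EEF1A1 and ZC3HAV1 fall outside this rule and were named after their values were seen. Alternatives were a pseudocount of 0.1, a 1.5-fold threshold, no filter on low values, protein-coding genes alone, a common sum, the 75th percentile of active genes, and the median of ribosomal protein genes. The last 2 scalings shifted the all-gene median in A673 by 0.22 and -0.19 (50 nM) and 0.32 and -0.29 (200 nM), and in SKNMC by 0.25 and -0.30 (50 nM) and 0.48 and -0.46 (200 nM).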

Additional observations from a re-analysis of the deposited data

Results flagged for a closer look

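Each of these results had opposite signs in the lines, and none of the differences was tested, since each condition has 1 library. Between 200 nM and 50 nM, ZC3H4 was at -0.091 in A673 and 0.064 in SKNMC, and KCNE3 at 0.017 and -0.52. Against DMSO, at 50 nM and then 200 nM, the neighbour SAE1 was at 0.19 and 0.30 in A673 and at -0.10 and -0.17 in SKNMC. TWF2, a neighbour of WDR82 that encodes an actin-binding protein, was at 0.033 and 0.27 in A673 and at -0.49 and -0.60 in SKNMC. CSNK2B, the regulatory subunit of casein kinase 2, was at 0.062 and 0.17 in A673 and at -0.083 and -0.028 in SKNMC. EXOSC5, an exosome subunit, was at 0.017 and 0.22 in A673 and at -0.087 and -0.20 in SKNMC. TRIM25 was at 0.053 and 0.052 in A673 and at -0.18 and -0.065 in SKNMC. Of 10574 genes active in both lines, 464 (4.39%) had positive values in A673 and negative values in SKNMC at each dose, and 93 (0.880%) had the reverse pattern. The opposite signs depended on the scaling of the libraries. Of these 7 genes, 7 kept them with 0.1 added, 5 with a common sum, 3 with the 75th percentile (ZC3H4, KCNE3 and TWF2) and 0 when divided by the ribosomal protein genes.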

How the results depend on the processing

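Each THZ1 library was compared with the DMSO library of its own line. No paired test was run, as no group has more than 1 library, and no result comes from a test. A fit over both lines with the line as a block, which would treat the lines as replicates, was not run. With 1 library per condition none could be left out. No value past 2-fold changed its direction in any alternative. Within 1.5-fold of the reported value stayed 126 of the members' values while 4 did not, 147 list counts while 33 did not, 174 list medians while 6 did not, 44 member counts and shares of all genes while 12 did not, and 1110 values of other genes while 26 did not. Values are given in the order A673 at 50 and 200 nM and SKNMC at 50 and 200 nM. With a pseudocount of 0.1, ZC3H4 was at -4.52, -4.77, -3.99 and -3.85, and the SETD1 genes decreased at 50 nM were 2 in A673 and 2 in SKNMC. Of all active genes, 31.8%, 41.1%, 33.5% and 48.0% passed a 1.5-fold threshold, and of all listed genes without a filter 6.41%, 10.2%, 6.84% and 11.8% passed 2-fold. Divided by the 75th percentile, 10.3% and 13.4% of active genes decreased in SKNMC. The termination partners decreased were then 1 in A673 at 50 nM, those of PNUTS-PP1 1 in A673 at 50 nM, 1 in A673 at 200 nM and 1 in SKNMC at 50 nM, and those of SETD1 0 and 2 in A673 and 2 in SKNMC at 200 nM. Under the same scaling Integrator at 200 nM had 2 in A673 and 3 in SKNMC, the exosome 3 and 6 in SKNMC, cleavage factors 4, 6, 3 and 6, CCCH genes 10 in A673 at 200 nM and 6 and 10 in SKNMC, and TRIM genes 8 and 14 in SKNMC. Divided by the ribosomal protein genes, 26.1% and 50.5% of active genes decreased in SKNMC. The termination partners decreased were then 2 in SKNMC at 50 nM, the SETD1 genes 3 in A673 at 50 nM and 3 and 7 in SKNMC, Integrator 8 in SKNMC at 50 nM, the exosome 9 and 19 in SKNMC, cleavage factors 10 and 17 in SKNMC, CCCH genes 32 in SKNMC at 200 nM and TRIM genes 22 in SKNMC at 50 nM. The cause of these moves was not tested beyond the shift that each scaling gives to all genes. Limits are the single library per condition, the unknown depth, the relative scale and the DMSO library shared by both doses of a line.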
